A study of Mus musculus with 2 samples.

Results

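The regions described here are Brg1 cKO peaks of open chromatin that each run across several separate control peaks. They were chosen by overlap alone: a cKO peak on chromosomes 1 to 19 or X was taken when it overlapped 2 or more different control peaks by at least 1 bp each. The rule took 878 of 61102 cKO peaks, and these held 1799 control peaks. Of the other cKO peaks, 56618 overlapped exactly 1 control peak and 3606 overlapped none. Because the peak calls of both libraries chose the regions, the number of control peaks joined and the distances between them are given as descriptions, with no test.

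ATAC-seq, which uses a transposase to place sequencing adapters in accessible DNA, was run on tdTomato-positive cells of the Wnt4 lineage purified by FACS from mouse kidneys late in gestation (E18.5). The Brg1 cKO library came from kidneys labelled Brg1cKO/cKO, and the control library from kidneys labelled WT control. Each reaction used 50000 cells. The driver of the deletion and the number of animals pooled are not stated in the labels used here, and the cell type label of the second library reads only control. Each genotype had 1 library, so there is no replicate spread, no test between genotypes was made, and a cKO and control difference cannot be told apart from a difference between 2 libraries. The lists held 61210 cKO and 77529 control peaks, covering 71.2 Mb and 84.4 Mb on chromosomes 1 to 19 and X. The deleted gene Smarca4 had 2 cKO and 3 control peaks assigned to it, and peak positions alone do not tell if the deletion took place. Genes of the nephron lineage had peaks in the cKO list, with 117 assigned to early nephron genes and 16 to Wnt4, but 106 were assigned to endothelial and 27 to immune and erythroid genes, and what part other cells have in the regions below was not tested. Sequencing depth is unknown here. Shares carry exact Clopper-Pearson 95% intervals and differences of shares carry normal-approximation 95% intervals, and both cover counting error only.

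Brg1, encoded by Smarca4, is an ATPase of the BAF complex, which uses ATP to slide and evict nucleosomes and so opens enhancers and promoters. Wnt4 is switched on in kidney mesenchyme as it turns into nephron epithelium. A peak caller ends a peak where the signal drops below its threshold for long enough, so whether neighbouring stretches of open DNA appear as 1 peak or as several depends on the signal between them. No 2 peaks of either list lay closer than 101 bp.

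A first set of sequences shows RefSeq promoters (GRCm38.p6, 250 bases before to 50 after the start) whose start site lay in a stretch between control peaks that 1 cKO peak bridged. Of 908 bridged stretches for which start sites were available, 4 held one. Capitals mark the letters of the GC box GGGCGG, the CCAAT box CCAAT, the TATA box TATAAA, the ETS core CCGGAA, the E-box CACGTG and the AP-1 site TGACTCA on either strand. Asb4 (chr6:5383136-5383435, plus strand) encodes a substrate adaptor of a ubiquitin ligase, and its start lay 46 bp after one control peak and 73 bp before the next.
Asb4: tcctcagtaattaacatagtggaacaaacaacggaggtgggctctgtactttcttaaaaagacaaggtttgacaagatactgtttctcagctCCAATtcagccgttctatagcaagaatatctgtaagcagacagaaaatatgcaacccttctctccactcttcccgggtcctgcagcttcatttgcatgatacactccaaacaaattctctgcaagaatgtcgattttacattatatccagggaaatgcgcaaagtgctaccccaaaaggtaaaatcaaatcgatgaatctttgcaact
Gm33786 (chr4:115059261-115059560, minus strand) starts beside Tal1, in a bridged stretch of 563 bp.
Gm33786: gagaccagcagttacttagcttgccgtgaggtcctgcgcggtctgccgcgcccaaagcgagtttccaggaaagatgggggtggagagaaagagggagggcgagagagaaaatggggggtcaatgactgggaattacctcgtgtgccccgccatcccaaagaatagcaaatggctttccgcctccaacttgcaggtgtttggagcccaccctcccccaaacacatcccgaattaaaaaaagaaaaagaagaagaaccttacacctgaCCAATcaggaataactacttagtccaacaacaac
Gm8493 (chr5:109553937-109554236, minus strand) starts in the bridged stretch of 2376 bp beside Crlf2.
Gm8493: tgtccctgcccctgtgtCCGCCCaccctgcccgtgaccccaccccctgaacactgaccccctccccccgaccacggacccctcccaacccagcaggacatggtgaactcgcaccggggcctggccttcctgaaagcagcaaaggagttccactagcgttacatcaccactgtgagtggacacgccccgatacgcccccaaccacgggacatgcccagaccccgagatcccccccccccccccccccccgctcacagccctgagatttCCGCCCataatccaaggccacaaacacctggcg
Gm34880 (chr15:99669807-99670106, minus strand) starts in a bridged stretch of 123 bp beside Asic1.
Gm34880: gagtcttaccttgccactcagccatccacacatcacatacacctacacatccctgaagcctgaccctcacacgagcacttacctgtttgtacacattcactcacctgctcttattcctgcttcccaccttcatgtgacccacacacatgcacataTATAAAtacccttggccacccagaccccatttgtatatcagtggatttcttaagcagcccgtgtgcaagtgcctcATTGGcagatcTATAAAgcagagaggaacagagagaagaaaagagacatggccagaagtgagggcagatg

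A second set shows the first promoter of Pou5f1, in the region with the largest distance bridged, and the promoter of Hoxd1, from the gene group with the highest share of joining peaks. The Pou5f1 window is chr17:35505782-35506081 on the plus strand, and the Hoxd1 window is chr2:74762730-74763029 on the plus strand. Both starts lay inside a control peak.
Pou5f1: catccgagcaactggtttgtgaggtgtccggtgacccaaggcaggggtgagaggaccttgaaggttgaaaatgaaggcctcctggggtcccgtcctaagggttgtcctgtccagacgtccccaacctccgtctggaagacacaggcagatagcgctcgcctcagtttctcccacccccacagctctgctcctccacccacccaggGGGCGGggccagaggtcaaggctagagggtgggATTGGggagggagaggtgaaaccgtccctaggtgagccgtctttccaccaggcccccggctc
Hoxd1: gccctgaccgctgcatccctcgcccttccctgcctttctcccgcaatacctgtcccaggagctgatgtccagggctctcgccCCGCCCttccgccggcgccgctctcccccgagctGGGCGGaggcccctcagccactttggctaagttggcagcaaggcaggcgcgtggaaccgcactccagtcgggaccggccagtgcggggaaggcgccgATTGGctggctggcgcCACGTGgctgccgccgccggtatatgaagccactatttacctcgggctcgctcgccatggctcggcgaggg

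The joining peaks were wide, as a rule that asks for several overlaps favours. Their median width was 2529 bp (quartiles 1736 to 3812, range 540 to 15705), against 900 bp over all cKO peaks. The widest 10% of cKO peaks held 516 of them (58.8%). Of the 878, 833 joined 2 control peaks, 41 joined 3 and 4 joined 4. The width of a joining peak divided by the span of its control peaks had a median of 0.997, and 461 of 878 were narrower than that span. The stretches between the joined control peaks made up a median of 6.83% of the joining peak's width (quartiles 4.28 to 12.03%). Parts of a joining peak beyond its outer control peaks are not counted in this share.

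Few joining peaks sat at the edge of the rule. The smaller overlap was 1 to 10 bp in 4 of them and 11 to 50 bp in 22, with a median of 643.5 bp. Just outside, 2 cKO peaks with 1 control peak ended less than 10 bp from a second, and 9 ended 10 to 49 bp from one.

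Most of the distances bridged were short. The 927 stretches between neighbouring joined control peaks had a median of 135 bp (quartiles 113 to 242, range 101 to 2450). The widest stretch was at most 150 bp in 510 of 878 regions, over 500 bp in 73 and over 1000 bp in 16. Exchanging the lists gave 997 of 77421 control peaks that joined 2 or more cKO peaks, with a median of 136 bp bridged (quartiles 113 to 217, range 101 to 4193, 1036 stretches). As shares, 1.44% of cKO peaks (1.34 to 1.53%) joined control peaks and 1.29% of control peaks (1.21 to 1.37%) joined cKO peaks. Per peak of the full lists, joining therefore ran in both directions at similar rates. Per pair it did not: of adjacent pairs at most 500 bp apart, 17.3% of control and 27.2% of cKO pairs were joined, as described below. Which direction had more changed with the peaks kept: with only as many of the most significant control peaks kept as there are cKO peaks, 560 cKO and 971 control peaks joined others, and with the more significant 50% of each list, 283 and 184 did.

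**Figure D1:**
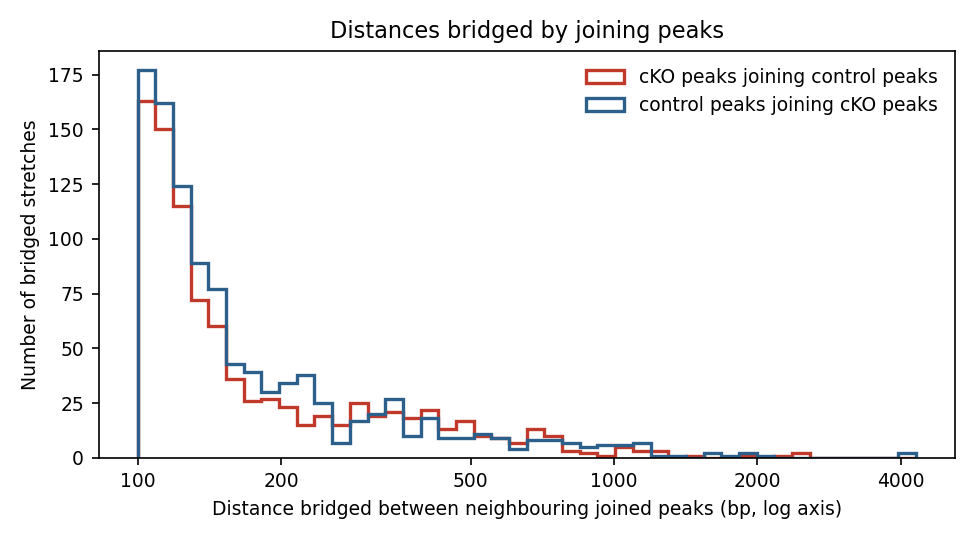
Number of bridged stretches (vertical axis) by distance in bp on a log axis, for cKO peaks joining control peaks and for control peaks joining cKO peaks. Both outlines are highest just above the smallest distance of 101 bp, with medians of 135 and 136 bp.

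Neighbouring peaks were followed as pairs to see how often those that could be joined were. Of 4930 adjacent control pairs at most 500 bp apart, 853 were joined by 1 cKO peak (17.3%, 16.3 to 18.4%), 2242 were called as separate cKO peaks, 1417 had a cKO peak on 1 side and 418 on neither. Where both sides were called, 27.6% were joined (26.0 to 29.2%). In the other direction 954 of 3504 cKO pairs were joined by a control peak (27.2%), or 30.1% (28.5 to 31.8%) where both sides were called. Restricting to pairs called on both sides thus brought shares of 17.3% and 27.2% to 27.6% and 30.1%, but a joined pair counts as called on both sides by definition, so this restriction itself depends on the outcome. The share fell with distance. Over all pairs at 101 to 110 bp, 38.2% of control pairs (33.9 to 42.6%) and 54.1% of cKO pairs (48.9 to 59.2%) were joined. At 201 to 300 bp these shares were 10.7% (8.69 to 12.9%) and 18.1% (15.2 to 21.3%). The intervals of both directions did not overlap in either class. At 501 to 1000 bp the shares were 1.61% and 2.42%, with intervals that overlap. Among pairs called on both sides, the shares at 101 to 110 bp were 56.9% and 59.2%. At 201 to 300 bp they were 17.4% and 20.1%, and at 501 to 1000 bp 2.64% and 2.66%. With this restriction, the intervals of both directions overlapped in each of these classes.

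**Figure D2:**
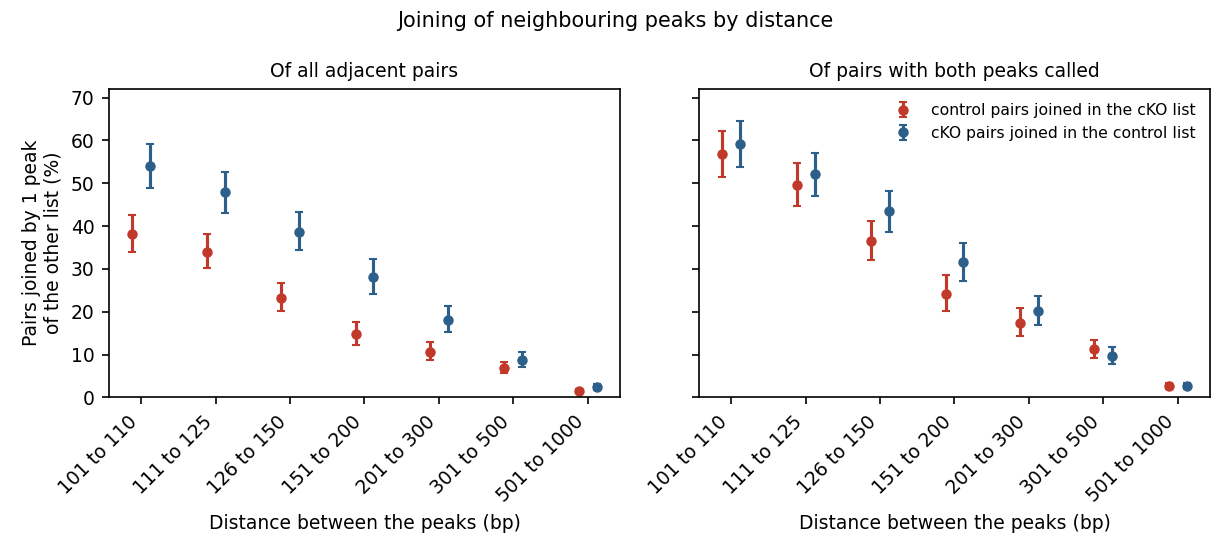
Share of adjacent pairs joined by 1 peak of the other list (%) by distance between the peaks (bp), with 95% intervals for counting error, for all pairs (left) and for pairs called on both sides (right). The shares decline with distance in both directions, to 2.64% and 2.66% of pairs called on both sides at 501 to 1000 bp.

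How joining varied with strength depended on which pairs were counted. Pairs were put in 5 classes by the significance of their weaker peak. Over all close control pairs, 180 of 1027 in the weakest class were joined by a cKO peak (17.5%, 15.2 to 19.99%), against 201 of 960 in the strongest (20.9%, 18.4 to 23.7%), a difference of -3.52 points within distance classes (-6.82 to -0.23). Among pairs called on both sides, which were 39.1% of the weakest class and 96.1% of the strongest, the order was the opposite, with 44.8% and 21.8% joined and a difference of 21.0 points (16.0 to 25.9). For cKO pairs joined by control peaks the difference was 10.2 points over all pairs (5.97 to 14.5) and 19.9 points among those called on both sides (15.3 to 24.5). Within a region the weaker control peak had a median width of 814 bp, and the stronger one 1570 bp. The cKO summit, the point of highest signal, lay inside the strongest joined control peak in 752 of 878 regions (85.6%, 83.2 to 87.9%). It lay between the control peaks in 1 of 833 regions that joined 2. In 76.7% of joining peaks the cKO summit was within 50 bp of the nearest summit among the joined control peaks. The share was 77.6% in width-matched cKO peaks that overlapped 1 control peak. Those had only 1 control summit to lie near, so these shares are not like for like.

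Whether joining peaks lay at genes depended on what they were set against. Of the 878, 454 (51.7%) lay within 1000 bp of an annotated gene end, a 5' or 3' end since both were counted. The share was 33.0% in cKO peaks overlapping exactly 1 control peak, a difference of 18.7 points (15.4 to 22.1). Among such peaks of the same 10% class of width the share was 67.8%, a difference of -16.1 points (-19.04 to -13.1). With 5 classes of -log10 p matched as well it was 54.6%, a difference of -2.94 points (-5.80 to -0.07), and with 10 classes of -log10 p -2.09 points (-4.92 to 0.74). The direction of the difference is therefore set by the matching. Among the widest 2 of 10 classes the median -log10 p was 7.47 in joining peaks and 9.42 in peaks that overlapped 1 control peak. Control peaks that joined cKO peaks gave 10.8 points with no matching, -21.7 with width matched and -9.57 (-12.4 to -6.75) with width and 5 classes of -log10 p. The 73 regions that bridged over 500 bp lay near a gene end in 67.1% (55.1 to 77.7%), against 50.8% (46.4 to 55.2%) of those at most 150 bp; they were also wider, with medians of 4525 and 2328 bp.

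**Figure D3:**
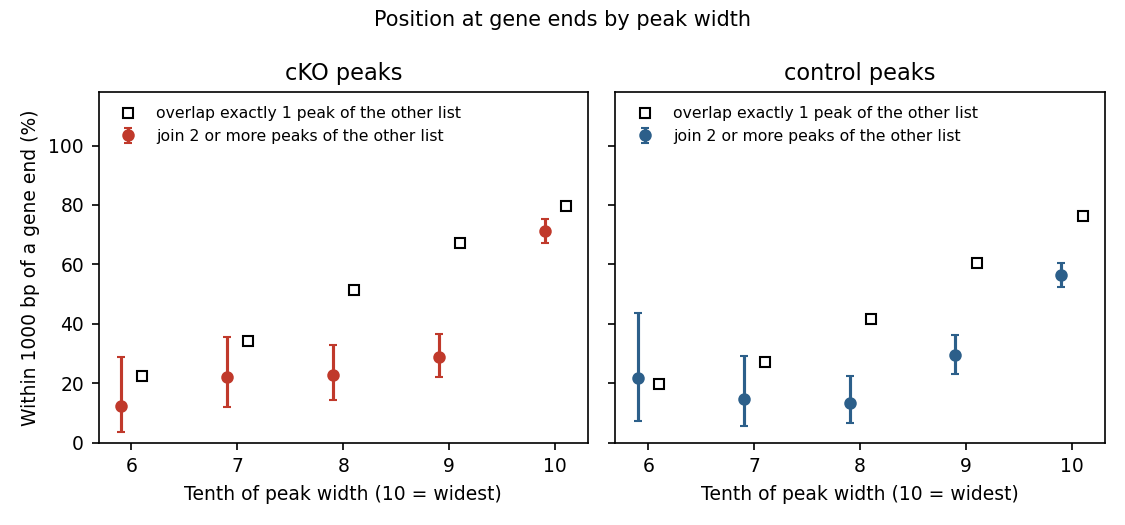
Share of peaks within 1000 bp of a gene end (%) by class of peak width (10 equal classes, 10 the widest), for cKO peaks (left) and control peaks (right), for classes 6 to 10; filled points are joining peaks with 95% intervals and open squares are peaks that overlap exactly 1 peak of the other list. Within most classes joining peaks lie lower in both lists, but these classes do not match significance, and with 5 classes of -log10 p matched the cKO difference is -2.94 points.

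The close pairs were also split by position. Of all control pairs, 446 of 2049 near a gene end were joined by a cKO peak (21.8%), against 407 of 2881 distal ones (14.1%), a difference of 7.01 points within distance classes (4.90 to 9.13). Among pairs called on both sides, which were 74.5% of those near a gene end and 54.4% of distal ones, it was 2.61 points (-0.34 to 5.57). For cKO pairs joined by control peaks the difference was -5.90 points over all pairs (-8.68 to -3.11) and -7.08 points among those called on both sides (-10.1 to -4.11). The difference between the 2 directions was not tested. Where both peaks of a pair held a start site, 28 of 76 control pairs were joined by a cKO peak (36.8%, 26.1 to 48.7%) and 18 of 84 cKO pairs by a control peak (21.4%, 13.2 to 31.7%), with intervals that overlap.

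The 432 RefSeq start sites inside joining peaks had promoters of 61.8% GC, against 64.6% in width-matched peaks and 53.9% over all 32619 promoters. The ratio of observed to expected CpG was 0.667, 0.769 and 0.464 in the same order. A GC box was present in 64.1%, 71.9% and 35.9% of promoters, a TATA box in 8.56%, 5.97% and 13.7%, and an ETS core in 16.0%, 23.0% and 15.0%. Width only was matched here. These are letters in a window, not bound sites.

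The region joining the most control peaks over the largest distance was at Pou5f1, which encodes the pluripotency factor Oct4. The cKO peak at chr17:35505781-35515123 joined 4 control peaks across 3286 bp in all, of which 2450 bp lay in a single stretch with no control peak. The control peaks were 912, 1037, 1691 and 2311 bp wide. A second cKO peak at Pou5f1 joined 2 more. The other regions that joined 4 were at Hjurp, a loader of the centromeric histone, with 368 bp bridged, at Gata2, a regulator of blood and endothelial genes, with 479 bp, and at Rex1bd with 719 bp. The next by the rule joined 3: a peak of 15705 bp at Smad7, an inhibitor of TGF-beta signalling, with 236 bp bridged, and 1 at Bahcc1 with 216 bp. Apart from Pou5f1, the largest distances bridged were 2376 bp at Crlf2, a cytokine receptor gene, 2191 bp at Cnih2, 2072 bp at Phf23 in a peak that also holds a start site of the Wnt pathway gene Dvl2, and 1512 bp at Ttyh3. The 5 most significant joining peaks were at Stub1, Cactin, Setd5, Prmt1 and Gdpd5, with -log10 p of 11.7 to 12.2 and 120 to 1238 bp bridged.

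**Figure D4:**
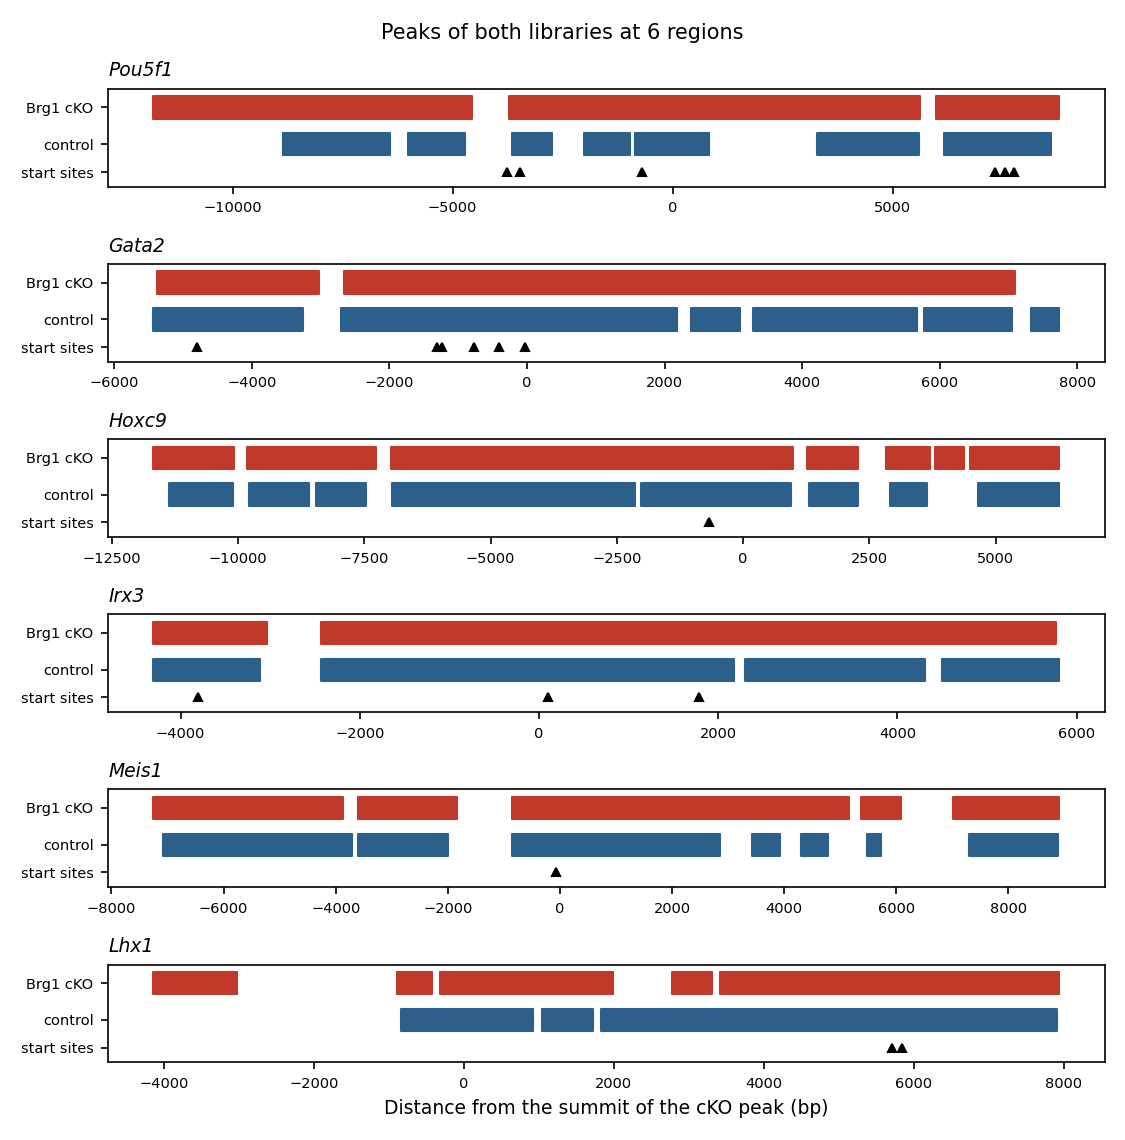
Peaks of the Brg1 cKO (upper bars) and control (lower bars) libraries at 6 regions against distance in bp from the summit of the cKO peak, with RefSeq start sites as triangles. At Pou5f1 a single cKO peak spans 4 control peaks, one stretch of 2450 bp among them having no control peak.

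Hox genes, the clustered regulators of position along the body axis, had the highest share of joining peaks of the gene groups examined. This group was chosen after its values were seen. Of 148 cKO peaks assigned to the 39 Hox genes, 23 joined control peaks (15.5%, 10.1 to 22.4%), against 1.51% of all cKO peaks assigned to a protein-coding gene. In the other direction 5 of 160 control peaks joined cKO peaks (3.13%, 1.02 to 7.14%), against 1.36%. The 4 clusters gave 4 of 36 cKO peaks in Hoxa, 7 of 44 in Hoxb, 9 of 42 in Hoxc and 3 of 26 in Hoxd, against 1 of 37, 2 of 50, 1 of 46 and 1 of 27 control peaks. All 4 clusters had more joining in the cKO list, although the intervals of each single cluster overlap. As the group was chosen after these values were seen, the counts by cluster and the differences below describe it and test nothing. Their intervals also treat neighbouring peaks of 1 library as independent. Hox peaks were wide, and within the 10 classes of width the Hox share exceeded that of other cKO peaks by 11.4 points (6.33 to 16.6), and with 5 classes of -log10 p added by 10.2 points (5.22 to 15.1). The same differences in the control list were -0.51 (-3.17 to 2.15) and -1.24 points (-3.50 to 1.02). The Hox share of cKO peaks was smaller with other lists. With equally long lists the shares were 9.46% of cKO and 3.91% of control peaks. With the more significant 50% of each list they were 8.60% and 2.97%. The share of all cKO peaks that joined control peaks also fell with these lists, and the Hox excess over it was not computed there.

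Of the 50 Hox control pairs at most 500 bp apart and called on both sides, 21 were joined by a cKO peak, against 5 of 38 Hox cKO pairs joined by a control peak. The 4 cluster windows were covered to 59.7% by cKO peaks and 53.7% by control peaks. Over chromosomes 1 to 19 and X the cKO list covered less (71.2 and 84.4 Mb). Of control peaks assigned to Hox genes, 96.25% overlapped a cKO peak, against 75.1% of those assigned to any protein-coding gene. For cKO peaks that overlapped a control peak, these shares were 91.2% and 95.3%. What part this has in the coverage and the joining at Hox genes was not tested. The regions include Hoxc9, where a cKO peak of 7966 bp covered control peaks of 4829 and 2968 bp separated by 113 bp, and Hoxb8, where 3 control peaks were joined. Hoxb4 had 3 joining peaks, 1 of them bridging 1057 bp. Hoxc11, which with its Hoxa and Hoxd counterparts patterns the kidney progenitors, had 2, bridging 112 and 545 bp. A pool of 10 other transcription factor families, among them Pax, Lhx, Sox, Fox, Tbx and Irx, had 24 of 737 cKO peaks joining (3.26%, 2.10 to 4.81%) and 23 of 891 control peaks (2.58%, 1.64 to 3.85%). Within that pool the Lhx family had 6 of 50 cKO peaks joining (12%, 4.53 to 24.3%), an interval that overlaps that of the Hox genes, and 3 of 59 control peaks. Tbx genes had 3 of 58 cKO and 0 of 63 control peaks, and Gata genes 2 of 30 and 0 of 40. The cKO share was also the higher one for Pax genes (3.90% against 0.99%) and Irx genes (6.45% against 5.26%). Sox genes went the other way, with 0 of 107 cKO and 4 of 122 control peaks. So did Dlx genes (1 of 40 and 3 of 45) and Fox genes (7 of 248 and 10 of 322). In each of these families the cKO and control intervals overlap, so these counts do not settle which list had more joining.

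**Figure D5:**
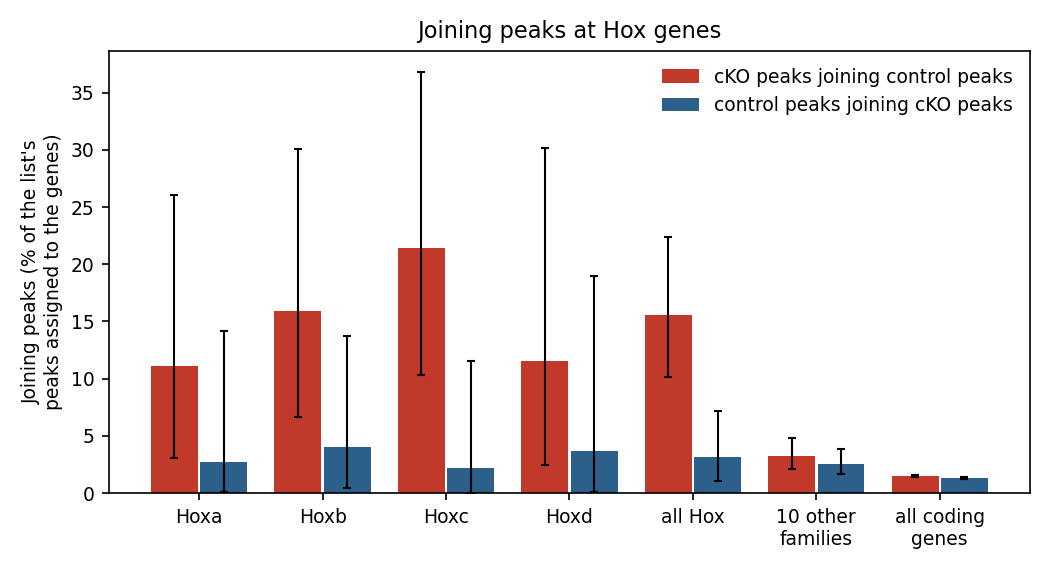
Joining peaks as a percentage of the list's peaks assigned to each gene group, cKO left of control, with exact 95% intervals for counting error. All Hox genes give 15.5% of cKO and 3.13% of control peaks, and the 10 other families 3.26% and 2.58%.

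A pair of microRNA hairpins of the Hox clusters lie in these peaks, Mir10a in a joining peak at Hoxb4 and Mir196a-2 in one at Hoxc10. Their mature 5p sequences (RefSeq, 5' to 3', seed bases 2 to 8 in capitals) are shown because miR-10 and miR-196 are encoded within Hox clusters.
miR-10a-5p: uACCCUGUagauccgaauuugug
miR-196a-5p: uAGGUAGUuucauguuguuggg

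The genes that mark kidney cell types were read against the shares over all assigned peaks, 1.51% of cKO and 1.36% of control peaks. Among podocyte genes 3 of 169 cKO peaks joined control peaks (1.78%), against 11 of 254 control peaks (4.33%), and the intervals overlap (0.368 to 5.10% and 2.18 to 7.62%). The regions were at Kirrel, a slit diaphragm gene, bridging 101 bp in a peak that holds its start site, at Foxc2 bridging 116 bp, and at Actn4 bridging 142 bp. The peak at Foxc2 was only 0.525 times as wide as the span of its control peaks. Early nephron genes had 2 of 117 cKO peaks and 6 of 142 control peaks. The cKO peaks were at Irx3, with 3 control peaks joined across 306 bp, and at Lhx1, a regulator of nephron patterning, with 3 joined across 218 bp in a peak covering 0.264 of the control span. Nephron progenitor genes had 2 of 103 cKO and 2 of 120 control peaks, both cKO peaks at Hoxc11. Proximal tubule genes had 0 of 38 cKO and 0 of 55 control peaks, with upper bounds of 9.25% and 6.49%, and loop and distal tubule genes 0 of 48 and 0 of 57. Collecting duct genes had 2 of 66 cKO peaks, assigned to Wnt11 and Wnt7b, and 0 of 87 control peaks. The peak assigned to Wnt11 had its summit 19.7 kb from the gene end and held a start site of Gm39054.

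Interstitial genes had 6 of 132 cKO peaks joining (4.55%, 1.69 to 9.63%) and 4 of 154 control peaks (2.60%, 0.712 to 6.52%). They included Meis1, a homeobox cofactor of Hox proteins, with a peak joining 3 control peaks across 928 bp and another bridging 115 bp, Meis2 with peaks bridging 355 and 111 bp, and Pdgfrb bridging 329 bp. With equally long lists the cKO share was 0.758%, and with the more significant 50% of each list it was 0. Endothelial genes had 2 of 106 cKO peaks, assigned to Egfl7 and Emcn, and 3 of 132 control peaks. The peak assigned to Egfl7 was only 0.589 times as wide as the span of its control peaks. The peak assigned to Emcn had its summit 52.3 kb from the gene end and held a start site of Gm567. Immune and erythroid genes had 2 of 27 cKO peaks, at Epor and Tal1, and 0 of 43 control peaks. Genes of the BAF complex had 3 of 92 cKO and 2 of 135 control peaks, with the cKO peaks at Dpf1 and Arid1a. Wnt signalling genes had 5 of 190 cKO and 9 of 261 control peaks. The cKO peaks included those at the target gene Axin2, bridging 1100 bp, at Ctnnb1, which encodes beta-catenin, bridging 109 bp, and at the receptor gene Lgr6, bridging 154 bp. The peaks at Axin2 and Ctnnb1 were only 0.479 and 0.482 times as wide as the span of their control peaks. At Axin2, Ctnnb1 and Lgr6 the cKO summit lay outside the strongest joined control peak. Smarca4, Smarca2 and Wnt4 had none among their 2, 7 and 16 cKO peaks, and 1 of 20 control peaks at Wnt4 joined cKO peaks. Housekeeping genes had 2 of 45 cKO peaks, at Actb and Eef1a1, and 2 of 52 control peaks. The peak at Actb was only 0.418 times as wide as the span of its control peaks. The counts of all these gene lists are small and their intervals are wide.

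Joining peaks were spread over the genome. A joining peak was assigned to 750 protein-coding genes, of which 52 had 2 or more. Septin9 had 4, and Arid5b, Foxp1, Gins2, Hoxb4 and Pax6 had 3 each. The 3 assigned to Gins2 by the nearest gene end all lie inside the neighbouring gene Gse1. By chromosome the share of cKO peaks that joined control peaks ranged from 0.648% on chromosome X to 2.02% on chromosome 11. In 150 of the 878 regions a joined control peak also overlapped another cKO peak, so that boundaries differed in both directions at the same place.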

How the data were processed

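Each library has a deposited narrowPeak list. The submitters' processing notes name Genrich, SAMtools, Trim Galore and mm10; aligner, versions, caller settings and duplicate handling are not stated there. Columns are the authors' score (capped at 1000), the deposited signal (area under the caller's curve, not scaled between libraries) and the deposited -log10 p and -log10 q. Joining depends on the caller's rules for ending a peak, which act on depth and background.

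From these, overlaps of 1 bp or more, distances, pair fates and shares were computed with Python 3.11.15, NumPy 2.4.6, pandas 2.3.3 and SciPy 1.17.1. Gene ends, start sites and sequences came from RefSeq GRCm38.p6; start sites on chromosome 18 were not used. Peaks were assigned to the nearest protein-coding gene end within 100000 bp. Comparisons were weighted within 10 classes of width, and alternatives added -log10 p. The overlap and matching code was tested on simulated data, where 500 of 500 planted joins were found. Named genes are the 6 regions joining most peaks, the 5 with the largest distance, the 5 most significant, up to 3 per list, and Smarca4, Smarca2 and Wnt4; Hox genes, genes with several joining peaks and start sites inside bridged stretches were added after values were seen. The regions and lists were chosen with earlier results of these data known. The 108 peaks of each list outside chromosomes 1 to 19 and X were left out.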

Additional observations from a re-analysis of the deposited data

Results flagged for a closer look

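Among the 108 cKO peaks outside chromosomes 1 to 19 and X, which entered no comparison, 8 overlapped 2 or more control peaks. This was above the count of 3 of 108 control peaks that overlapped 2 or more cKO peaks there. Both counts are small and come from 1 library per genotype. No interval was computed for them, and the difference was not tested.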

How the results depend on the processing

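The share of regions near a gene end minus that of width-matched cKO peaks was -16.1 points and turned to 18.7 with no matching; it was -2.94 with 5 classes of -log10 p added, -12.04 with the control list cut to the cKO length and -5.41 with the more significant 50% of each list. Other windows, protein-coding genes only and finer classes of width left it between -18.3 and -14.0. The count of 878 became 267 for control peaks over 200 bp apart, 560 with equal list lengths and 283 with the more significant 50%, where the exchanged count of 997 became 184. That 50% also gave 20% of close control pairs joined, 30.9% of control pairs and 22.1% of cKO pairs called on both sides, and 0 regions with the summit between the control peaks. Equal lengths gave 23.1% and 35.5% of pairs called on both sides. An overlap of at least 50% of each joined peak gave 14.0% of close pairs, and 24.1% and 27.1% of pairs called on both sides. For pairs at most 300 bp apart these 3 shares were 22.2%, 34.8% and 39.0%, and at most 1000 bp 10.7%, 17.2% and 18.8%. The cause was not tested, apart from the fewer peaks and pairs the settings leave by construction. Of 89 named regions, all kept 2 or more control peaks at an overlap of 10 bp, 81 at 50% and 55 with equal lengths; of the 72 still listed among the more significant 50% of each list, 39 did. The pairs split by strength, the matching with 10 classes of -log10 p, the pairs called on both sides and the Hox group were added after seeing the data. No paired analysis was possible because each genotype has 1 library. Depth is unknown, so a stretch without a peak may still be accessible.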
